A study of Mus musculus with 4 samples.

Results

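This account concerns 36 genes of the presynaptic vesicle and release machinery, read on arrays of mouse cerebrum RNA in 2 models of endothelial Mfsd2a loss. The genes were taken from a fixed list of names, which was chosen with earlier results of these data known. A member was read where a probe set carried its symbol and no other, by the brightest probe set of the gene, with a mean signal of at least 50 over the 4 arrays. All 36 listed genes met this rule, of 18194 genes named on the arrays and 12426 that were bright enough. The dimmest member was Syt2, with a mean signal of 53.9, and the next was Slc17a7, with 186. The 4 groups were 2aECKO (Mfsd2afl/fl with Tie2-cre) and 2afl/fl (Mfsd2afl/fl) at postnatal day 9, and 2aiECKO (Mfsd2afl/fl with Cdh5ERT2-cre) and 2afl/fl 4-OHT (Mfsd2afl/fl) at postnatal day 8. Every group carried the floxed allele. Tie2-cre removes the gene from endothelium before birth and is also active in some blood-lineage cells, whereas Cdh5ERT2-cre acts in endothelium once 4-hydroxytamoxifen (4-OHT) has been given to the newborn pups, and the floxed controls of that model received 4-OHT too. Neurons, in which these genes mainly act, were not the target of either cre line. Each group was 1 array of RNA pooled from 5 to 6 cerebrums, so there was no test across animals and no p-value, and folds are given as measured.

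A presynaptic terminal fills vesicles with transmitter, brings them to the active zone, primes them and fuses them with the plasma membrane when calcium enters. Vesicular transporters load the transmitter, synapsins hold the vesicle reserve, SNARE proteins drive fusion, synaptotagmins sense calcium, complexins regulate the assembled SNAREs, and the ATPase NSF takes used SNAREs apart. Rab3 proteins and their effectors direct vesicles to a scaffold of RIM, Bassoon, Piccolo, ELKS and Munc13 proteins that sits beside the calcium channels. In rodent forebrain many of these genes increase over the first postnatal weeks, as synapses form.

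The tissue label was checked against region markers. The 5 cortical markers that could be matched had mean signals of at least 50, whereas of 6 cerebellar and hindbrain markers 1, Hoxa5, did. The arrays of a pair were on 1 scale, with sorted log2 values differing by at most 0.07 for 2aECKO and its control and 0.05 for 2aiECKO and its control. The 2 controls differed by up to 0.79, so each fold was computed inside its own pair. The Mfsd2a probe set, 1 in all, read 410 in 2aECKO and 423 in 2afl/fl, and 299 in 2aiECKO and 369 in 2afl/fl 4-OHT. Where this probe set lies relative to the deleted sequence was not checked, so the reading does not check the labels. One label of the 2aiECKO pool, its source name, has 2aECKO in it, and the group was taken from the title, which the cre line given for the pool matches.

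Most presynaptic genes read slightly lower in both knockout pools than in their controls, and few differed by much. A gene was called lower at a knockout-to-control ratio of at most 0.8 and higher at the inverse of that ratio or above, provided that the brighter pool reached a signal of 50. In 2aECKO, 2 of 36 members, Slc17a7 and Rph3a, were called lower and 0 higher, where 1.44% of all genes tested were lower and 2.04% higher. In 2aiECKO, 0 of 36 were called lower and 0 higher, against 0.523% lower and 1.77% higher of all genes. The median log2 fold of the members was -0.10 in 2aECKO and -0.07 in 2aiECKO, beside -0.0066 and -0.0042 over all genes tested. A log2 fold below 0 was read for 28 of 36 members in 2aECKO, against 51.5% of all genes, and for 31 of 36 in 2aiECKO, against 50.9%. In both comparisons at once 27 members were below 0, against 32.7% of all genes. At a smaller size of 1.1-fold, 13 members were lower and 3 higher in 2aECKO, where 13.4% of all genes were lower and 13.3% higher. In 2aiECKO 12 members were lower and 0 higher at that size, where 9.61% of all genes were lower and 11.5% higher. These are counts over genes of the same arrays, and with 1 pool per group it is not known how far 2 pools of the same genotype would differ.

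**Figure D1:**
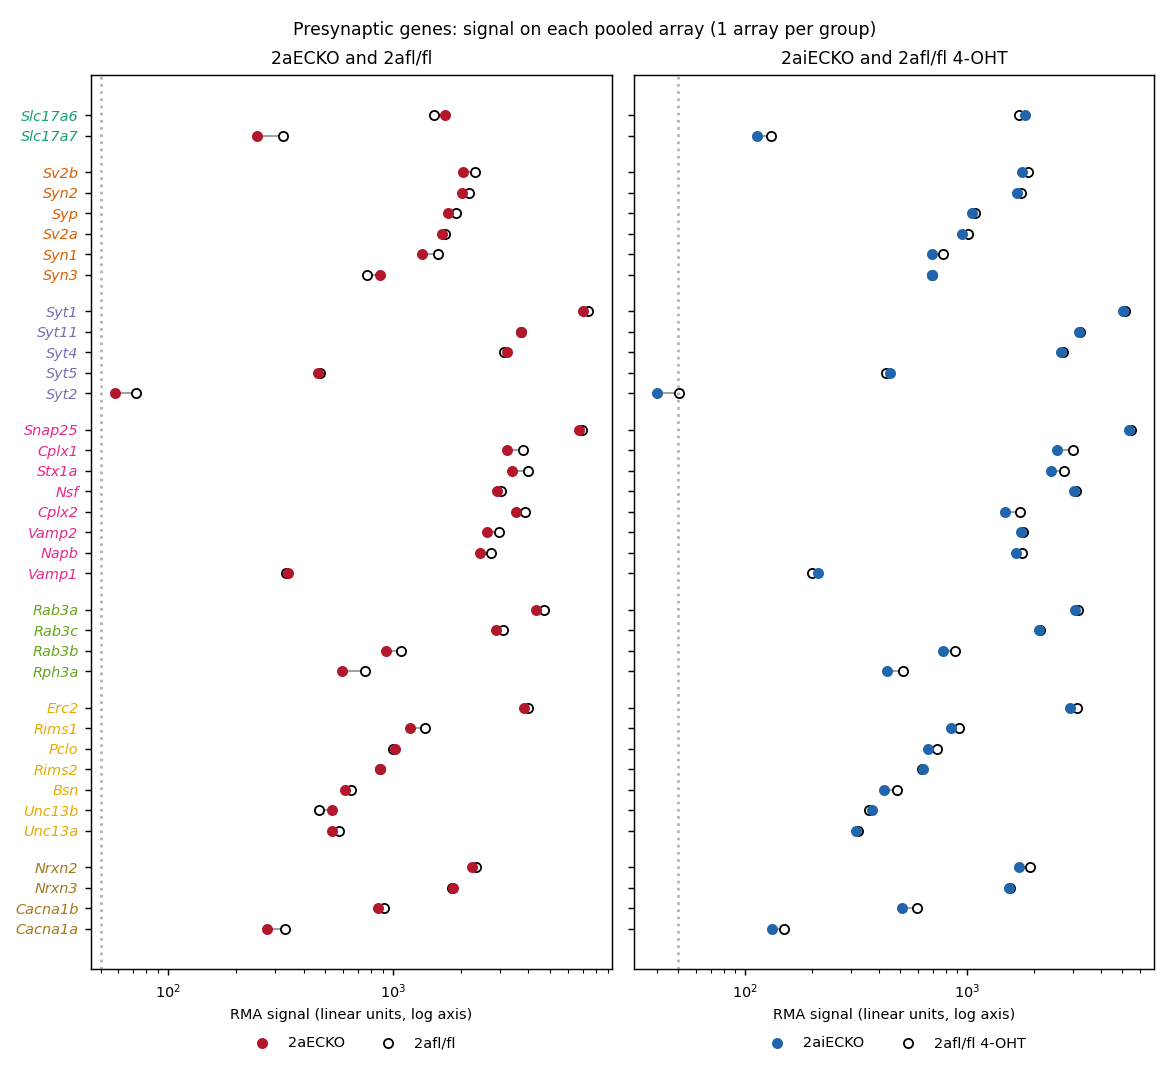
RMA signal (horizontal log axis, linear units) of each presynaptic gene on the 4 arrays, with the 2aECKO pair on the left and the 2aiECKO pair on the right; filled points are the knockout pool, open points its floxed control, name colours mark the role groups and the dotted line is a signal of 50. The filled point lies left of the open point for 28 genes in the left panel and 31 in the right, and the gaps are short beside the range of levels.

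The vesicular glutamate transporters lay on opposite sides of 0. Slc17a7 encodes VGLUT1, the main transporter of cortical and hippocampal glutamatergic neurons, and had a signal of 248 in 2aECKO and 324 in 2afl/fl, a log2 fold of -0.39. It was the lowest member in that model, and 0.596% of all genes tested had a lower fold. In the induced model its signal was 113 in 2aiECKO and 131 in 2afl/fl 4-OHT, a log2 fold of -0.21. Slc17a7 has 1 probe set, so its fold has no second reading on the arrays. Slc17a6 encodes VGLUT2, which prevails in thalamus and brainstem, and read 1709 in 2aECKO and 1519 in 2afl/fl, a log2 fold of 0.17. In the induced pair it read 1815 in 2aiECKO and 1721 in 2afl/fl 4-OHT, a log2 fold of 0.08. Its other probe set gave 0.20 and 0.08. The fold of Slc17a7 minus that of Slc17a6 was -0.56 on the log2 scale in 2aECKO and -0.29 in 2aiECKO. Markers of thalamus and midbrain moved with Slc17a6 in 2aECKO: of 6 markers 5 had a log2 fold above 0 (median 0.24), from Rora at 0.07 to Lhx9 at 0.42, with Prkcd at -0.05, and their summed signal was 4103 in 2aECKO and 3487 in 2afl/fl. In the induced pair 3 of the 6 were above 0 and the sums were 3425 in 2aiECKO and 3229 in 2afl/fl 4-OHT. The part of these region markers in the values of Slc17a6 and Slc17a7 was not tested.

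Among synapsins and vesicle membrane proteins, 5 of 6 genes were below 0 in 2aECKO and 6 of 6 in 2aiECKO, with median log2 folds of -0.10 and -0.07. Syn1, a synapsin of mature terminals, read 1348 in 2aECKO and 1591 in 2afl/fl, a ratio of 0.847, and 691 in 2aiECKO and 781 in 2afl/fl 4-OHT, a ratio of 0.886. Syn3, the synapsin expressed earliest in neuronal development, went the other way in 2aECKO, with 879 against 766 in 2afl/fl, a log2 fold of 0.20 and the highest among the members. In 2aiECKO it read 692, against 696 in 2afl/fl 4-OHT. Its probe sets did not move together, since a dim one gave -0.15 in 2aECKO. Between them Syn2, the synapsin with the most probe sets, was at -0.09 in 2aECKO and -0.05 in 2aiECKO by the brightest, and its other probe sets that reached 50 were all below 0. Synaptophysin (Syp), the most used vesicle marker, was at -0.12 on the log2 scale in 2aECKO and -0.04 in 2aiECKO. The vesicle glycoprotein genes Sv2a and Sv2b stood at -0.05 and -0.18 in 2aECKO, and both at -0.09 in 2aiECKO.

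Promoter sequence is shown for Slc17a7, as the member with the lowest fold in 2aECKO, and for Syn1, as the member whose promoter held motifs of neuronal gene control upstream of its start. Both are the 250 bases before the transcription start, from RefSeq on GRCm38.p6, read 5′ to 3′ on the strand of the gene, at chr7:45163671-45163920 on the plus strand for Slc17a7 and chrX:20920919-20921168 on the minus strand for Syn1. Capitals mark matches to the motifs searched.
Slc17a7: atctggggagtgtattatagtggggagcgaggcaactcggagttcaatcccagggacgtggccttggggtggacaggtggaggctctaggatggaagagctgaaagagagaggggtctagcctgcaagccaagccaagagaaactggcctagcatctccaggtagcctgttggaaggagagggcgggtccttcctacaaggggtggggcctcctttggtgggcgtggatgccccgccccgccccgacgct
Syn1: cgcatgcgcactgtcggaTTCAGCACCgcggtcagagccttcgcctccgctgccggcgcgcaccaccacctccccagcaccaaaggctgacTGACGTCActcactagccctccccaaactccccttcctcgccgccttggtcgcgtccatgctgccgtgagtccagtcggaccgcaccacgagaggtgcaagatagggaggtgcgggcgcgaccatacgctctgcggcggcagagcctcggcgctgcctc
The motifs were TGACGTCA, the cyclic AMP response element, and TTCAGCACC and GGACAGCGC, parts of the RE1 element bound by the repressor REST, each searched on both strands of windows of 250 bases before to 50 after a start; none overlaps another. In Syn1 TTCAGCACC lay 232 to 224 bases before the start and TGACGTCA 159 to 152 bases before it. Unc13a held GGACAGCGC and TTCAGCACC on the opposite strand, 5 to 13 and 22 to 30 bases after its start. Of the 28 members with a promoter in the table, TGACGTCA was found in 1, TTCAGCACC in 2 and GGACAGCGC in 1, against 2.03%, 0.433% and 0.477% of 27025 genes. Syn1 was at -0.24 in 2aECKO and -0.18 in 2aiECKO, and Unc13a at -0.10 and -0.03. A match of letters is a description of sequence and not of a bound site.

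Of the synaptotagmins, Syt2 was furthest from its controls by the brightest probe set. Syt1, the fast calcium sensor of forebrain terminals, read 6981 in 2aECKO and 7385 in 2afl/fl, and 5013 in 2aiECKO and 5167 in 2afl/fl 4-OHT, log2 folds of -0.08 and -0.04. Syt2, its counterpart in hindbrain and in some inhibitory neurons, read 57.9 in 2aECKO and 72.2 in 2afl/fl, and 40.2 in 2aiECKO and 50.2 in 2afl/fl 4-OHT. Its ratios of 0.803 and 0.801 stop just short of the 0.8 needed for a call, and its log2 fold of -0.32 in 2aiECKO was the lowest of the members there. Both other Syt2 probe sets were below 50, and over the mean of all of its probe sets Syt2 was at -0.134 in 2aECKO and -0.128 in 2aiECKO. By that mean many other members were lower than Syt2 in 2aiECKO, among them Rph3a (-0.242), Cplx1 (-0.238), Slc17a7 (-0.212) and Rab3b (-0.191). Of the related pair Syt4 and Syt11, Syt4 was at 0.05 in 2aECKO and -0.02 in 2aiECKO by its brightest probe set and at 0.20 and 0.06 by its other, and Syt11 was at -0.0018 and -0.01. Syt5, a further vesicle synaptotagmin, read 465 in 2aECKO and 473 in 2afl/fl, and 448 in 2aiECKO and 430 in 2afl/fl 4-OHT, a log2 fold of 0.06 that was the third highest in that model.

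In the fusion machinery the SNARE genes split by the brightest probe set, and both complexins read lower in both models, short of a call. Complexin 1 (Cplx1) read 3220 in 2aECKO and 3794 in 2afl/fl, and 2546 in 2aiECKO and 3001 in 2afl/fl 4-OHT, a log2 fold of -0.24 in each. Its next probe set was at -0.26 in 2aECKO and -0.22 in 2aiECKO, and its dimmest at -0.37 and -0.26. Cplx2 read 3515 in 2aECKO and 3873 in 2afl/fl, a log2 fold of -0.14, and 1477 in 2aiECKO and 1737 in 2afl/fl 4-OHT, a log2 fold of -0.23. Here the dimmer probe sets were further from 0 in 2aECKO (-0.26 and -0.29) than in 2aiECKO (-0.15 and -0.17), so the order of the models depends on the probe set. Stx1a, the syntaxin of the plasma membrane, had ratios of 0.853 in 2aECKO and 0.875 in 2aiECKO, whereas Snap25, its partner there, had 0.972 and 0.985. Of the vesicle SNAREs, Vamp2, the form of most forebrain terminals, was at -0.17 in 2aECKO and at -0.03 in 2aiECKO. Vamp1, which prevails in brainstem and spinal cord, read 339 in 2aECKO and 333 in 2afl/fl, and 213 in 2aiECKO and 200.4 in 2afl/fl 4-OHT. Its log2 fold of 0.09 was the highest of the members in 2aiECKO by the brightest probe set. Napb, the neuronal SNAP cofactor of NSF, had -0.15 and -0.09, and Nsf itself -0.06 and -0.03 by its brightest probe set. The other Nsf probe set above 50 was further from 0, at -0.19 in 2aECKO and -0.13 in 2aiECKO.

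The Rab3 genes and their effector rabphilin were below 0 in both models by the brightest probe set, 4 of 4. Rph3a, which encodes rabphilin, read 593 in 2aECKO and 747 in 2afl/fl, a log2 fold of -0.33 and a ratio of 0.794, the second lowest member in that model. Its call is narrow: after quantile normalization over the 4 arrays it was at -0.3198, short of a call, and Syt2 was called in its place. In the induced pair it read 436 in 2aiECKO and 512 in 2afl/fl 4-OHT, a ratio of 0.852. A dimmer probe set gave -0.50 and -0.25. Rab3b read 932 in 2aECKO and 1082 in 2afl/fl, and 774 in 2aiECKO and 884 in 2afl/fl 4-OHT, ratios of 0.861 and 0.876. By the brightest probe set its relatives were nearer their controls. Rab3a was at -0.13 in 2aECKO and -0.05 in 2aiECKO, and Rab3c at -0.10 and -0.03. The order in 2aiECKO depends on the probe set. A dimmer Rab3c probe set was at -0.17 in 2aECKO and -0.31 in 2aiECKO, where the single Rab3b probe set was at -0.19. Other Rab3c probe sets gave -0.19 and -0.10, 0.06 and -0.07, and, at the dimmest, 0.14 and 0.20. The other Rab3a probe set was at -0.12 in each model.

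Active zone genes were mixed, with 4 of 7 below 0 in 2aECKO and 5 of 7 in 2aiECKO. Rims1, a RIM scaffold gene, read 1194 in 2aECKO and 1390 in 2afl/fl, and 846 in 2aiECKO and 919 in 2afl/fl 4-OHT, log2 folds of -0.22 and -0.12, whereas Rims2 had 0.01 and 0.02. The Munc13 priming genes also parted: Unc13b read 537 in 2aECKO and 469 in 2afl/fl, a log2 fold of 0.20, and 371 in 2aiECKO and 361 in 2afl/fl 4-OHT, a log2 fold of 0.04, while Unc13a was below 0 in both. Of the large scaffold genes Bsn (Bassoon) was at -0.10 in 2aECKO and at -0.19 in 2aiECKO by its brightest probe set, but at -0.22 and -0.06 by a dimmer one, so the order of the models depends on the probe set. Pclo (Piccolo) was at 0.03 and -0.13, and Erc2, an ELKS protein, at -0.07 and -0.11.

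Among calcium channels and neurexins, the channel genes read lower in both knockout pools by the brightest probe set, short of a call. Cacna1a, the pore subunit of P/Q-type channels, read 275 in 2aECKO and 329 in 2afl/fl, and 132 in 2aiECKO and 150.0 in 2afl/fl 4-OHT, log2 folds of -0.26 and -0.18. The size of its fold depended on the probe set: its other probe set above 50 was at -0.16 in 2aECKO and -0.04 in 2aiECKO. The mean over all its probe sets was -0.0138 and -0.144. That mean takes in probe sets below 50, which were at 0.20 and 0.17 in 2aECKO. Cacna1b, the N-type pore subunit, read 855 in 2aECKO and 913 in 2afl/fl, and 508 in 2aiECKO and 595 in 2afl/fl 4-OHT, log2 folds of -0.09 and -0.23. The other Cacna1b probe sets were of both signs in 2aECKO, from -0.17 to 0.09, and ran from -0.15 to -0.05 in 2aiECKO. Of the neurexins, which are adhesion proteins of the terminal, Nrxn2 was at -0.07 in 2aECKO and -0.16 in 2aiECKO, and Nrxn3 at 0.01 and -0.01.

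**Figure D2:**
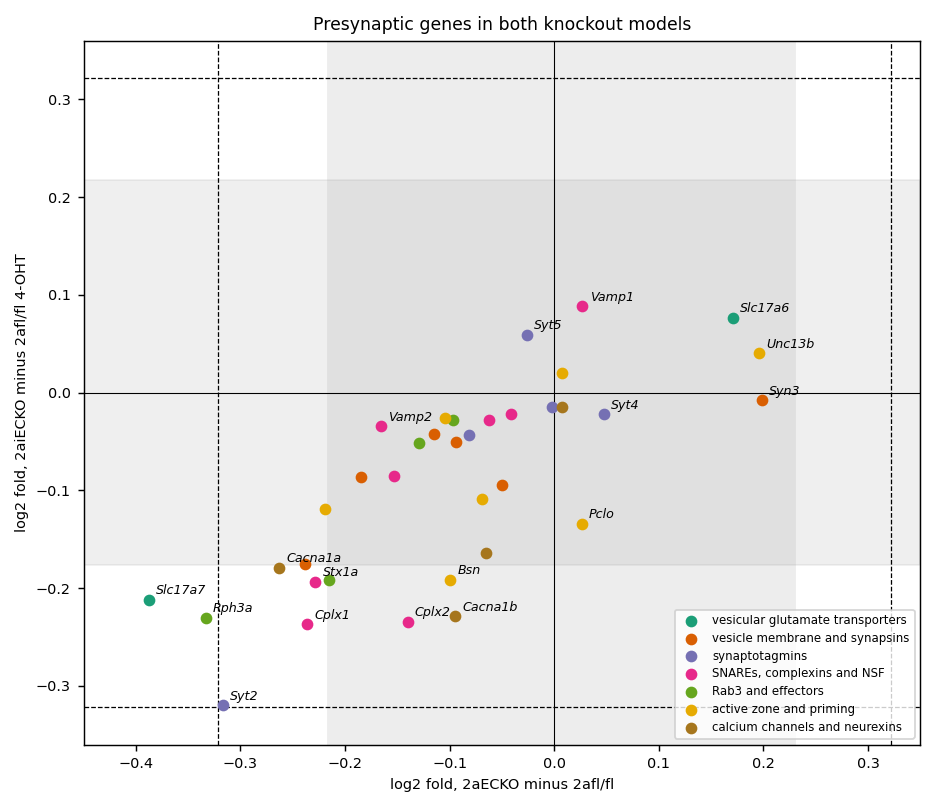
Log2 fold of each presynaptic gene for the Tie2-cre model (2aECKO over 2afl/fl) along the horizontal axis and for the induced model (2aiECKO over 2afl/fl 4-OHT) along the vertical axis, coloured by role; dashed lines mark a ratio of 0.8 and its inverse and the grey bands span the 5th to 95th percentile of all 12426 genes, vertical for 2aECKO and horizontal for 2aiECKO. Slc17a7, Rph3a and Syt2 lie at the lower left, and Slc17a6, Unc13b and Syn3 at the right.

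Members that were lower in one model tended to be lower in the other. Over the 36 genes the folds of the models were related with r = 0.75 (Pearson) and rho = 0.78 (Spearman), beside 0.43 and 0.40 over all 12426 genes. The models share no array, but every gene is read by the same probes in each, and genes are not independent of one another, so the values are descriptive. By the brightest probe set, the members with signs that differed between the models were Syn3, Syt4, Syt5, Pclo and Nrxn3, 5 in all. For each, the fold in 2aECKO, in 2aiECKO or in both was within the median SD between probe sets of a gene. That SD was 0.07 in 2aECKO and 0.06 in 2aiECKO. The dimmer probe sets of Syn3, Syt4 and Pclo each had the same sign in both models. Those of Nrxn3 went both ways, and Syt5 has no other probe set. The median difference of the log2 fold, 2aECKO minus 2aiECKO, was -0.03 over the members, beside -0.0035 over all genes tested. The difference ran from -0.18 for Slc17a7 to 0.21 for Syn3. It goes with cre line, day, 4-OHT and the separate scales of the pairs, which cannot be told apart.

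Repeat readings on the same arrays come only from different probe sets of a gene. The members had 99 probe sets, of which 85 had a mean signal of at least 50, and 27 members had several of these. In 2aECKO all such probe sets were below 0 for 15 of the 27 members, above 0 for 3 and of both signs for 9, where 32.8% of all genes with several had all below 0 and 24.6% all above. In 2aiECKO the numbers were 18, 3 and 6, where 27.8% of all such genes had all below 0 and 23.4% all above. Over all genes with several probe sets the median SD of the log2 fold between them was 0.07 in 2aECKO and 0.06 in 2aiECKO. Set against that spread, 22 members lay further below 0, 3 further above 0 (Slc17a6, Syn3 and Unc13b) and 11 within it in 2aECKO, where 30.2% of all genes lay further below 0 and 27.5% further above. In 2aiECKO 18 members lay further below, 2 further above (Slc17a6 and Vamp1) and 16 within it, where 26.9% of all genes lay further below and 25.4% further above. Syt1 shows how far readings can part, since its dimmest probe set gave 0.50 in 2aECKO and 0.26 in 2aiECKO against -0.08 and -0.04 at its brightest.

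**Figure D3:**
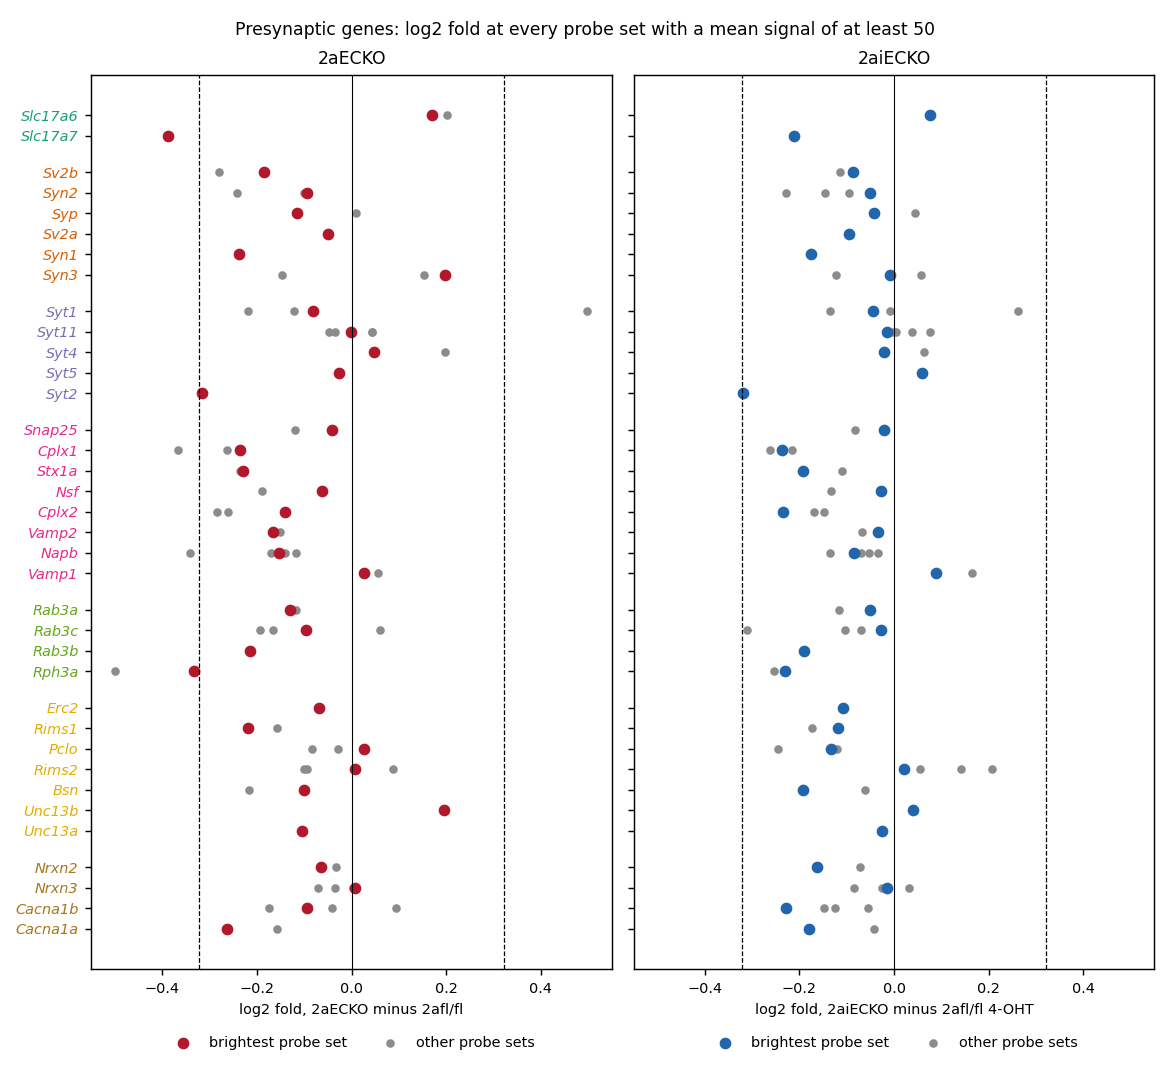
Log2 fold (horizontal axis) at each probe set of the presynaptic genes whose mean signal reached 50, in 2aECKO over 2afl/fl (left) and 2aiECKO over 2afl/fl 4-OHT (right); large coloured points are the brightest probe set, grey points the others, name colours mark the role groups and dashed lines a ratio of 0.8 and its inverse. The probe sets of Cplx1, Napb, Rph3a and Stx1a stay left of 0 in both panels, and those of Syt1 and Syn3 fall on both sides.

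Other genes of the terminal also lay mostly below 0. Of 30 matched genes of the release machinery outside the list, 26 were below 0 in 2aECKO and 25 in 2aiECKO. Their median log2 folds were -0.10 and -0.07. Of all genes tested, 51.5% were below 0 in 2aECKO and 50.9% in 2aiECKO. The calls were 1 lower in 2aECKO, 0 lower in the induced model and 0 higher in either. That gene was Cplx3, the complexin of subplate neurons, which read 217 in 2aECKO and 286 in 2afl/fl, a log2 fold of -0.40, but 196 in 2aiECKO and 186 in 2afl/fl 4-OHT, a log2 fold of 0.08. Snapin, a SNAP25-binding protein gene, was the highest of that list in both models, with log2 folds of 0.19 and 0.21. For 17 other vesicle proteins the medians were -0.04 and -0.04, with 11 below 0 in each model. Their folds ran from Syt12 at -0.32 to the monoamine transporter gene Slc18a2 at 0.29 in 2aECKO, and 0 of them were called in either direction or model. For 16 genes of vesicle endocytosis the medians were -0.05 and -0.04, with 10 below 0 in 2aECKO, 13 in 2aiECKO and 0 calls. The lowest in 2aECKO was Pacsin1 at -0.18. On the other side of the synapse, 14 postsynaptic genes had medians of -0.10 and -0.07, with 12 below 0 in each model. Camk2a, a kinase of excitatory synapses, was called lower in 2aECKO with 2827 against 3617 in 2afl/fl.

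Markers of cell types moved beside the members. Of 10 pan-neuronal markers 8 were below 0 in 2aECKO and 10 in 2aiECKO, with medians of -0.08 in each and 0 called, and their summed signal was 51356 in 2aECKO and 53614 in 2afl/fl, and 43650 in 2aiECKO and 45972 in 2afl/fl 4-OHT. The summed signal of the 36 members was 73768 in 2aECKO and 78647 in 2afl/fl, and 54989 in 2aiECKO and 57894 in 2afl/fl 4-OHT. In RNA of whole tissue, fewer neurons and less of these RNAs per neuron cannot be told apart. Of 7 inhibitory neuron markers 3 were below 0 in 2aECKO and 4 in 2aiECKO, with medians of 0.03 and -0.01 and Lhx6 called lower in both, at -0.38 and -0.36. Of 8 astrocyte markers 7 were above 0 in 2aECKO and 8 in 2aiECKO, with medians of 0.25 and 0.30, and their summed signal was 17961 in 2aECKO and 15940.5 in 2afl/fl, and 13075 in 2aiECKO and 10791 in 2afl/fl 4-OHT. Of 8 microglial markers 0 were called higher and 2 lower in 2aECKO, and 6 were higher and 0 lower in 2aiECKO, with summed signals of 4251 in 2aECKO and 4037 in 2afl/fl, and 5134 in 2aiECKO and 3587 in 2afl/fl 4-OHT. Nuclear-retained RNAs had a median log2 fold of 0.46 in 2aECKO, with 6 of 9 called higher, and of 0.18 in 2aiECKO, with 0. Their summed signal was 25267 in 2aECKO and 19936 in 2afl/fl, and 12920 in 2aiECKO and 12004 in 2afl/fl 4-OHT. The 9 matched housekeeping genes had medians of -0.03 and -0.01, the 6 oligodendrocyte genes 0.08 and 0.16, the 6 endothelial genes -0.02 and -0.14, and the 5 cortical genes -0.0037 and -0.07. The part of cell makeup and of nuclear RNA in the presynaptic values was not tested.

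**Figure D4:**
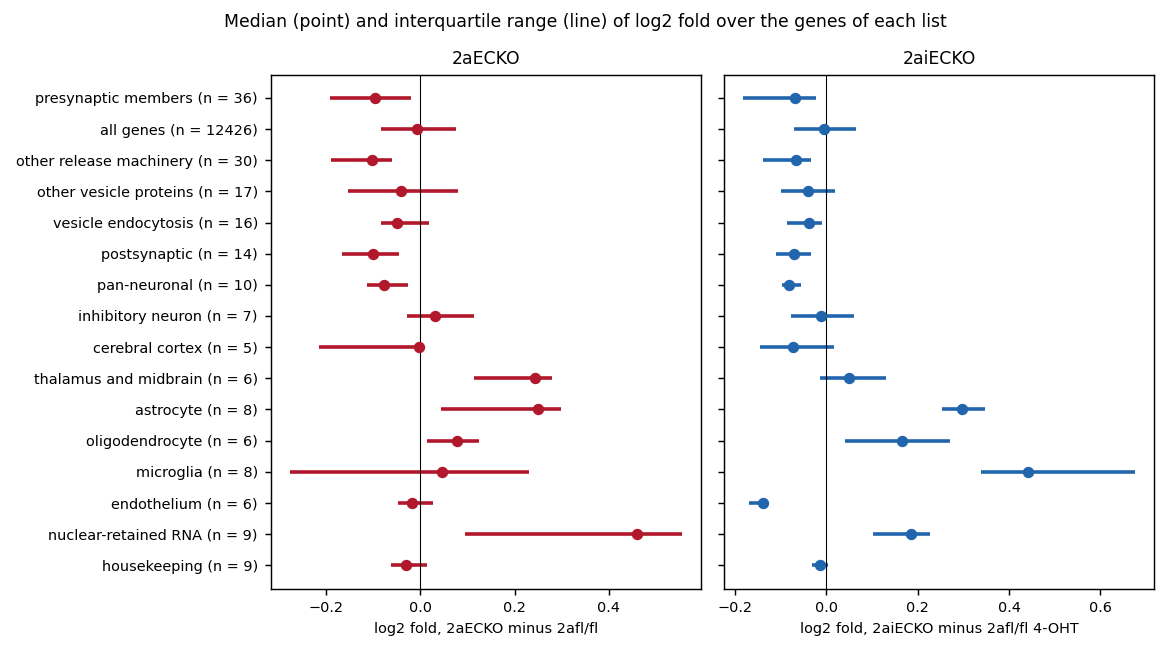
Median (point) and interquartile range (line) of the log2 fold (horizontal axis) over the genes of each list whose mean signal reached 50, in 2aECKO over 2afl/fl (left) and in 2aiECKO over 2afl/fl 4-OHT (right). The presynaptic members, other release machinery, postsynaptic and pan-neuronal lists have medians between -0.10 and -0.07 in both panels, left of that of all genes.

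For most genes on the arrays, the members among them, the controls differed from each other by more than the knockouts from their controls. After quantile normalization over all 4 arrays, 2afl/fl at day 9 minus 2afl/fl 4-OHT at day 8 gave a median of 0.17 over the members and -0.06 over all genes, and 27 of 36 members were above 0, against 40% of all genes. Slc17a7 was 0.90 higher in 2afl/fl on this log2 scale, Cplx2 0.87, Cacna1a 0.75 and Syn1 0.74. Slc17a6, at -0.49, and Nsf, at -0.30, were the lowest. The median absolute log2 fold over the members was 0.11 in 2aECKO and 0.09 in 2aiECKO, beside an absolute difference between the controls of 0.24. Over all genes the same medians were 0.0800, 0.0689 and 0.171. The difference between the controls exceeded the size of both folds for 25 of 36 members and for 63.6% of all genes, so the members' share was near that of the arrays. Each knockout fold uses 1 of these controls, so the 3 sets of values are not independent. Day, 4-OHT and separate processing of the pairs cannot be told apart in this difference. A reading of the members therefore rests on the pairing of each knockout with its own control: with the controls exchanged on that scale, the members' median was 0.08 for 2aECKO and -0.29 for 2aiECKO.

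**Figure D5:**
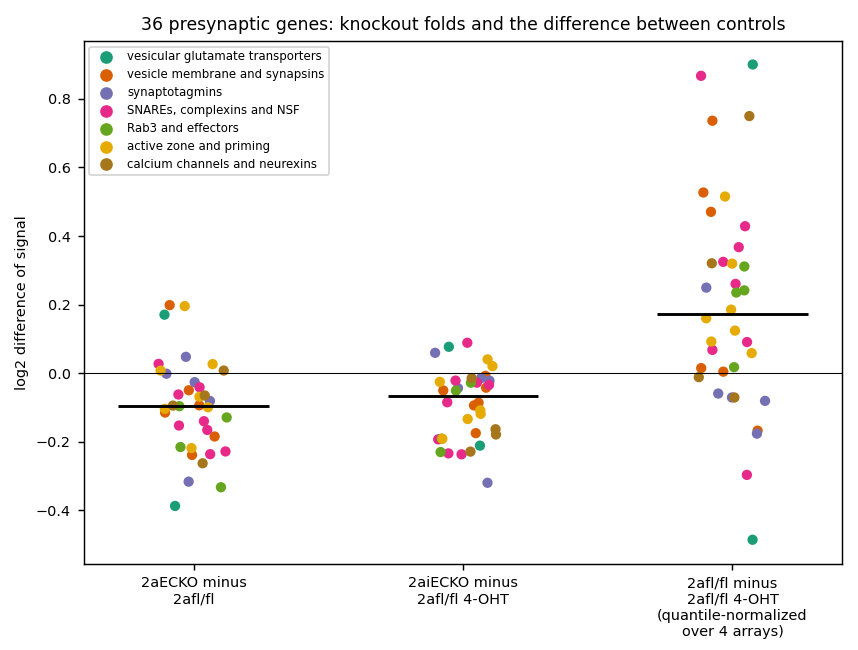
Log2 difference of signal (vertical axis) for the 36 presynaptic genes in 2aECKO minus 2afl/fl, in 2aiECKO minus 2afl/fl 4-OHT, and in 2afl/fl minus 2afl/fl 4-OHT after quantile normalization over the 4 arrays; each point is a gene, coloured by role, and each bar a median. The medians are -0.10, -0.07 and 0.17, and the spread is widest in the last column.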

How the data were processed

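RNA pooled from 5 to 6 cerebrums per group was read on 1 Affymetrix array per group. The deposited intensity is linear RMA signal, for which the authors adjusted background and applied quantile normalization; the methods name the affy package and the submitters' processing notes name Partek 6.6. Log2 was taken. Of 45101 probe sets 34958 carry 1 symbol, 932 several and 9211 are unnamed here. The brightest probe set (by mean log2) stood for a gene, and genes with a mean signal (2 to the mean log2) of at least 50 were kept. Lower meant a ratio of at most 0.8 where the control pool reached 50, and higher the inverse ratio or above where the knockout pool did. With 1 array per group there was no test, and the number of arrays limits precision. All 36 members could be named, and in full those called and the 3 highest and 3 lowest in each comparison; other genes came from 15 lists. The members and lists were chosen with earlier results of these data known. The fold step was tested on simulated data with changes larger than any fold of the members, so that test does not cover folds of the size reported here. The alternatives averaged a gene's probe sets, dropped probe sets of less specific design, or used a loess trend removed (fraction 0.3), centring, a minimum of 100 or none, a fold of 1.5, quantile normalization over 4 arrays, and on that scale the other or the mean control. Python 3.11.15, numpy 2.4.6, pandas 2.3.3, statsmodels 0.14.6 and matplotlib 3.10.9 were used.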

Additional observations from a re-analysis of the deposited data

How the results depend on the processing

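Values with no test were taken as moved when they differed from the reported one by more than the median SD between probe sets, 0.07 in 2aECKO and 0.06 in 2aiECKO, and counts when they differed by over 1.5 times. With the controls exchanged, after quantile normalization over the 4 arrays, the median log2 fold of the members was 0.0786 in 2aECKO and -0.286 in 2aiECKO and the difference between the models 0.368, with 2 members lower (16.2% of all genes) and 8 higher (8.04%) in 2aECKO, and 14 lower (9.17%) and 1 higher (15.2%) in 2aiECKO. Slc17a7 then had a log2 fold of 0.50 in 2aECKO. With the mean of both controls the medians were 0.0172 and -0.197 and the difference 0.198, with 1 member lower (4.48% of all genes) in 2aECKO, and 8 lower (2.83%) and 1 higher (4.31%) in 2aiECKO, and Slc17a7 had 0.0498 in 2aECKO. By construction these 2 settings add the gap between the controls to the folds. With a loess trend removed 1 member, Syt2, was lower in 2aiECKO (0.547% of all genes). At a fold of 1.5, 0 were lower in 2aECKO (0.0724% of all genes). Quantile normalization over the 4 arrays left 2 members lower in 2aECKO (1.9% of all genes), but Slc17a7 and Syt2 in place of Slc17a7 and Rph3a. Under the remaining alternatives the called members were those reported, while the number of members below 0 varied. In 2aiECKO it was 31 of 36 as reported, 26 of 35 by the mean of probe sets, 29 of 35 without less specific probe sets and 30 of 35 at a minimum of 100. In 2aECKO it was 28 of 36 as reported, and 26, 27 and 27 of 35 in the same settings. Centring gave 27 of 36 in 2aECKO. Of the 72 folds of single members, 13 moved by the mean of probe sets, among them Cacna1a and Syt2. That mean also takes in probe sets below 50. Without less specific probe sets 5 of 70 moved. With these settings and quantile normalization included, the medians stayed between -0.0956 and -0.0537 in 2aECKO and between -0.0841 and -0.0505 in 2aiECKO. No paired analysis was possible because each group is 1 array.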
